A study of Mus musculus with 8 samples.

Results

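Cells keep iron in balance through a small set of proteins that bring it in, store it, release it from haem and send it out. Transferrin receptor 1 takes up transferrin-bound iron at the surface, ferritin shells hold it in the cytosol, haem oxygenase frees it from haem, and ferroportin is the one known iron exporter of mammalian cells. The iron regulatory proteins bind hairpins called iron-responsive elements in several of these mRNAs when iron is scarce, which stabilises the transferrin receptor mRNA and slows translation of ferritin and ferroportin. The levels described here are mRNA levels on arrays, so that control of translation is outside what was measured.

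The 10 genes described are Slc40a1, Tfrc, Fth1, Ftl1, Hmox1, Slc11a2, Ireb2, Aco1, Steap3 and Cp, out of 16590 genes with a probe on the array. They were found as every probe carrying one of these symbols, 12 of 25697 probes in all. The set was chosen by its measured values in this same comparison, so the differences of its members between groups are given as a description, with no test. The treated group was mouse embryonic fibroblasts (MEFs) kept for 72 h in 5-aza-2'-deoxycytidine (5-aza-dC), a cytosine analogue that traps DNA methyltransferases and lowers DNA methylation as cells divide. The labels give the dose as 1 µM, while the study's methods give a lower one, and which of them holds was not settled. The control group was the same kind of cells with DMSO, the solvent of the drug. Cells of both groups were Trp53-/- and Dnmt1+/+, so both lacked p53 and kept the maintenance DNA methyltransferase gene intact. Each group had 2 biological replicates, with 2 technical arrays each, 8 arrays in all. The study's text describes both groups as coming from the same starting population of MEFs, so errors and p-values measure the spread between these samples and not between animals.

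Mean signals ran from 295 to 376 on the 5-aza-dC arrays and from 321 to 376 on the control arrays. The number of probes above background, meaning a detection p-value under 0.05, was 13153 to 13595 with 5-aza-dC and 12841 to 12910 in control. Of the fibroblast markers Col1a1, Col1a2, Pdgfra, Pdgfrb, Vim and Thy1, all 6 were above background on every array. Their summed signal was 15500 to 17865 on the 5-aza-dC arrays and 32773 to 35132 on the control arrays, since 4 of the 6 were called lower and Thy1 was called higher. Albumin and the other 4 hepatocyte markers were above background on no array. Of 4 macrophage markers on the array, Ptprc, Adgre1 and Lyz2 were above background on none, while Cd14 was so on all 8 arrays and was higher by 0.87 with 5-aza-dC (adjusted p = 0.000984, limma). Of 5 erythroid markers, Gata1, Epor, Hba-a1 and Hbb-bt were above background on no array, while Klf1 was so on 4 treated and 2 control arrays and did not pass (difference 0.28, adjusted p = 0.188). In RNA from a whole dish, fewer cells that carry a transcript and less of it in each cell cannot be told apart.

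Levels are given as log2 of the background-corrected and quantile-normalised probe intensity, in the order replicate 1 array 1, replicate 1 array 2, replicate 2 array 1 and replicate 2 array 2. Levels of different probes are not comparable with each other, so each probe is set against itself across the groups. Of the 10 genes, 8 passed the filter on low signal (10 of the 12 probes), and Ftl1 and Steap3 did not.

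RefSeq promoter windows (250 bases before to 50 after a transcript start, build GRCm38.p6) were at hand for 7 of the 10 genes, 13 windows in all, and are of interest because the drug acts on CpG methylation. Both Tfrc windows held 30 CpG dinucleotides, which was more than in 88.3% of the 32851 windows of all genes. Ireb2 had 28, Fth1 4 and 27 in its 2 windows, Ftl1 20, and Aco1 14. The 4 Steap3 windows held 4 to 16, and the 2 Cp windows held 2 and 4. The median over all windows was 7, with quartiles of 3 and 20. The methylation of these windows was not measured on the arrays. Sequences are shown for members that passed the fit below and had a long enough stretch of window before their RefSeq start. These were Tfrc and Cp. Ireb2 also passed, but its stretch was too short. Whether CpG count goes with the direction of a difference was not tested. Each sequence is the genomic + strand with its CpG dinucleotides in capitals, and runs from the start of the gene's first window to the base before the earliest start in its RefSeq record. For Cp that record begins inside the window, upstream of the start the window is built on, so its sequence is shorter and lacks the bases nearest that start.
Tfrc, chr16:32608646-32608895: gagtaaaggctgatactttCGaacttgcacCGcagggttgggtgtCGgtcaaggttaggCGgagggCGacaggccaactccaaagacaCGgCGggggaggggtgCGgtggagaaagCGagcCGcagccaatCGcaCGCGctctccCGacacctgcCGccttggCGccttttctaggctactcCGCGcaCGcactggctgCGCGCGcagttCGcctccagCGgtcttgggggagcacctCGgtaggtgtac
Cp, chr3:19956804-19956932: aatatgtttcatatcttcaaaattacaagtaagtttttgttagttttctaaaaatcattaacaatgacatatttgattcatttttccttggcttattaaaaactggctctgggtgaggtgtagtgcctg
Over the whole 300 bases of these windows, Tfrc held 30 CpG dinucleotides at 66.0% G and C, and Cp held 2 at 38.3%. The letters ACGTG, a form of the core bound by hypoxia-inducible factors, were searched on both strands, and other forms of it were not. They occurred in both Tfrc windows, in the stretch the windows share, in no other member window, and in 19.6% of all windows. The letters TGACNNNGC, the core of the antioxidant response element, were in no member window and in 12.4% of all windows. No window was at hand for Slc40a1, Hmox1 or Slc11a2, so neither motif was searched in these genes.

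Among the export genes, both members measured were lower with 5-aza-dC. Slc40a1 encodes ferroportin, the exporter. Its level was 6.23, 6.09, 5.81 and 5.76 on the 5-aza-dC arrays and 10.29, 10.27, 10.52 and 10.41 on the control arrays. Every 5-aza-dC array was far below every control array, with a gap of 4.12 between the nearest replicate means. The difference was -4.40 on the log2 scale (SE 0.16, 95% interval -4.78 to -4.03), which is 21.1-fold lower, with replicate means of 5.97 ± 0.26 with 5-aza-dC and 10.37 ± 0.13 in control (SD, n = 2 each). Slc40a1 stood 6th from the lowest of the 9502 genes tested. It was still above background on all 4 treated arrays, where its unprocessed signal was 86.3 to 99.5, against 1366 to 1410 in control. The size depends on how a low signal is corrected for background. The difference was -3.81 with a larger offset of 50 in place of 16, and -3.73 with the deposited normalised values.

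Cp encodes ceruloplasmin, a copper-containing ferroxidase that oxidises iron leaving the cell so that transferrin can carry it. Its level was 6.18, 6.46, 6.38 and 6.08 with 5-aza-dC and 7.76, 7.71, 7.85 and 7.84 in control. The groups did not overlap. The difference was -1.51 (SE 0.11, 95% interval -1.78 to -1.25), or 2.85-fold lower. It was also closer to 0 with the larger offset, at -1.19, and with the deposited values, at -1.17.

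The summed signal of the 6 fibroblast markers was lower with 5-aza-dC as well, as given above. Col1a1 differed by -2.52, Col1a2 by -2.71, Pdgfrb by -2.38 and Pdgfra by -1.69, while Vim differed by 0.15 and was not called. The part of these markers in the lower Slc40a1 and Cp levels was not tested.

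**Figure D1:**
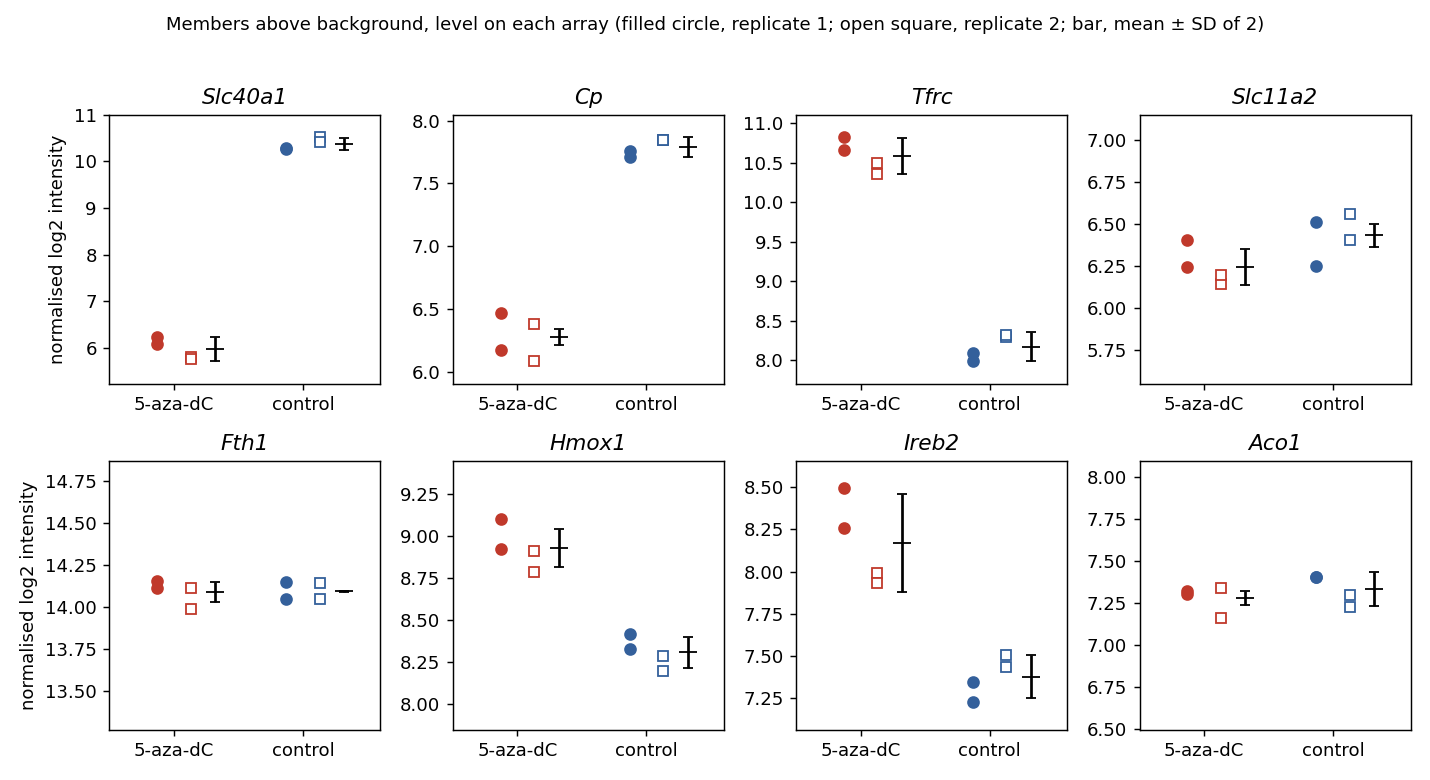
Normalised log2 intensity (vertical axis, a separate range for each gene) of the 8 members above background on each of the 4 5-aza-dC arrays and 4 control arrays, with filled circles for replicate 1, open squares for replicate 2, and a bar for the mean ± SD of 2 replicates. Slc40a1 and Cp lie lower and Tfrc, Hmox1 and Ireb2 higher on every 5-aza-dC array than on any control array, while the arrays of Fth1, Slc11a2 and Aco1 overlap.

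Among the uptake genes, the transferrin receptor was higher, the ferrous iron transporter differed by less than its interval, and the reductase could not be measured. Tfrc encodes transferrin receptor 1, and 2 probes represent it. The brighter one read 10.66, 10.82, 10.49 and 10.36 with 5-aza-dC and 7.99, 8.10, 8.29 and 8.32 in control. The other read 10.51, 10.56, 10.19 and 10.32 with 5-aza-dC and 8.01, 7.89, 8.30 and 8.11 in control. With both probes, all treated arrays lay above all control arrays. The brighter probe gave a difference of 2.41 (SE 0.16, 95% interval 2.03 to 2.79), 5.31-fold higher, and the other gave 2.32 (SE 0.15), 5.00-fold higher. Tfrc stood 83rd from the highest of the genes tested.

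Slc11a2 encodes DMT1, which carries ferrous iron out of endosomes. It read 6.24, 6.40, 6.14 and 6.19 with 5-aza-dC and 6.25, 6.51, 6.56 and 6.40 in control. Single arrays of the groups overlapped, while the replicate means did not. The difference was -0.19 (SE 0.11, 95% interval -0.46 to 0.09). Steap3 encodes the endosomal ferrireductase that reduces iron released from transferrin. Its probe was above background on none of the 8 arrays, with unprocessed signals of 47.0 to 53.5 with 5-aza-dC and 38.5 to 50.8 in control, so no level can be given.

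Among the storage genes, ferritin heavy chain was at nearly the same level in both groups. Fth1 encodes this subunit, whose ferroxidase activity loads iron into the shell. Its brighter probe read 14.11, 14.15, 13.99 and 14.11 with 5-aza-dC and 14.15, 14.04, 14.04 and 14.14 in control. The difference was 0.00 with an interval of -0.47 to 0.47 (SE 0.20), and that of the second probe was -0.02 with an interval of -0.53 to 0.48. With median scaling the gene differed by -0.09, and with the deposited normalised values by 0.14. These values moved by more than the replicate SD, and Fth1 was called with neither. Both probes were among the brightest of the array, ranked 11 and 18 of 25697 by mean signal, at 76.8% to 95.7% of the brightest probe on each array. Whether signals so near the top still follow RNA amount in proportion was not tested. Ftl1 encodes ferritin light chain, the subunit that helps the iron core form. Its single probe had detection p-values of 0.14 to 0.34 on the 5-aza-dC arrays and 0.14 to 0.63 on the control arrays, so it was not above background anywhere and its level was not measured.

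Hmox1 encodes haem oxygenase 1, the inducible enzyme that opens the haem ring and frees its iron. Its level was 9.10, 8.92, 8.79 and 8.91 with 5-aza-dC and 8.42, 8.33, 8.29 and 8.19 in control. The groups did not overlap, with a gap of 0.48 between the nearest replicate means. The difference was 0.62 (SE 0.12, 95% interval 0.33 to 0.91), 1.54-fold higher. Without control replicate 2 it was 0.56 and no longer passed the threshold of the fit, though it did so without any other replicate.

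The sensors of cytosolic iron differed from each other. Ireb2 encodes iron regulatory protein 2, which is degraded when iron is plentiful. Its level was 8.26, 8.50, 7.99 and 7.93 with 5-aza-dC and 7.35, 7.22, 7.50 and 7.43 in control. All treated arrays were above all control arrays, and the treated replicates lay 0.42 apart, the widest replicate gap among the member probes. The difference was 0.79 (SE 0.16, 95% interval 0.40 to 1.19), 1.73-fold higher. Aco1 encodes iron regulatory protein 1, which is a cytosolic aconitase when it holds an iron-sulphur cluster. It read 7.30, 7.32, 7.34 and 7.16 with 5-aza-dC and 7.40, 7.41, 7.30 and 7.22 in control, with overlapping groups. Its difference was -0.05 (SE 0.11, 95% interval -0.32 to 0.22).

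**Figure D2:**
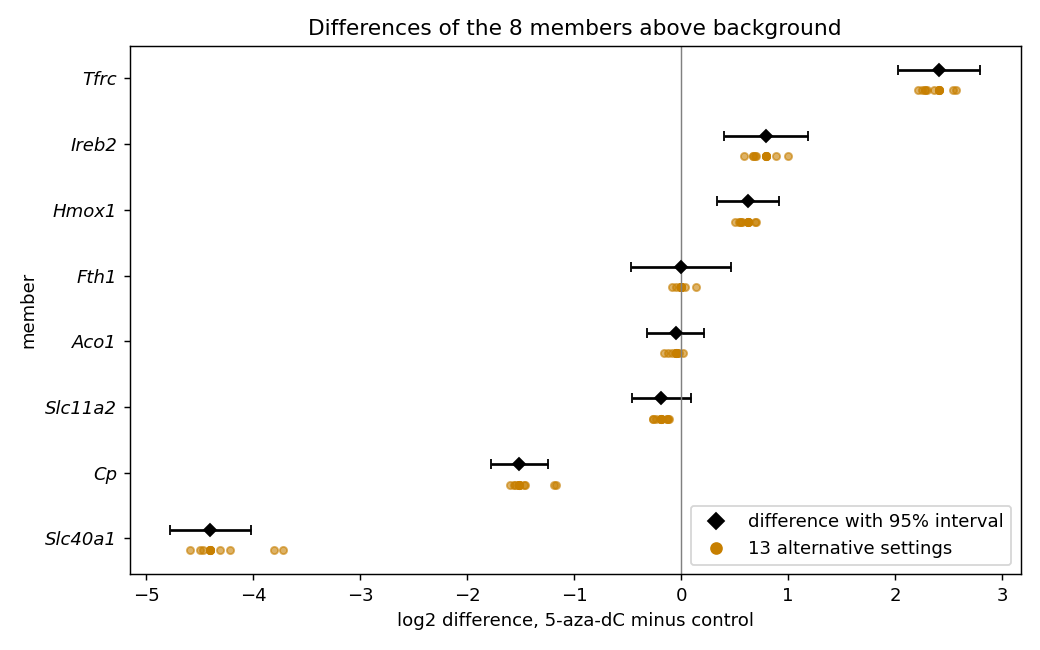
Log2 difference, 5-aza-dC minus control (horizontal axis), of the 8 members above background, with black diamonds and bars for the value and its 95% interval and ochre points for the 13 alternative settings of the processing. Tfrc, Ireb2 and Hmox1 lie above 0 and Cp and Slc40a1 below 0 under every setting, and the 2 points of Slc40a1 nearest 0 are -3.81 and -3.73.

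In the fit over all genes, 5 of the 8 members measured passed an adjusted p of 0.05 (limma with Benjamini-Hochberg adjustment), 3 higher and 2 lower, or 62.5%. Over all 9502 genes tested, 52% passed, 26.3% higher and 25.7% lower, and over the 14308 probes kept 52.2% passed. Because the members were selected on this comparison, these counts are a description. The median log2 difference was -0.03 over the 8 members and -0.02 over all genes. The median size without regard to sign was 0.71 over the members and 0.41 over all genes. Of the 8 members, 3 differed by over 2-fold (37.5%), Slc40a1, Tfrc and Cp, compared with 15.6% of all genes. Technical arrays of 1 replicate differed by a median of 0.11 and at most 0.30 over the member probes. Biological replicates differed by a median of 0.18 with 5-aza-dC and 0.16 in control.

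**Figure D3:**
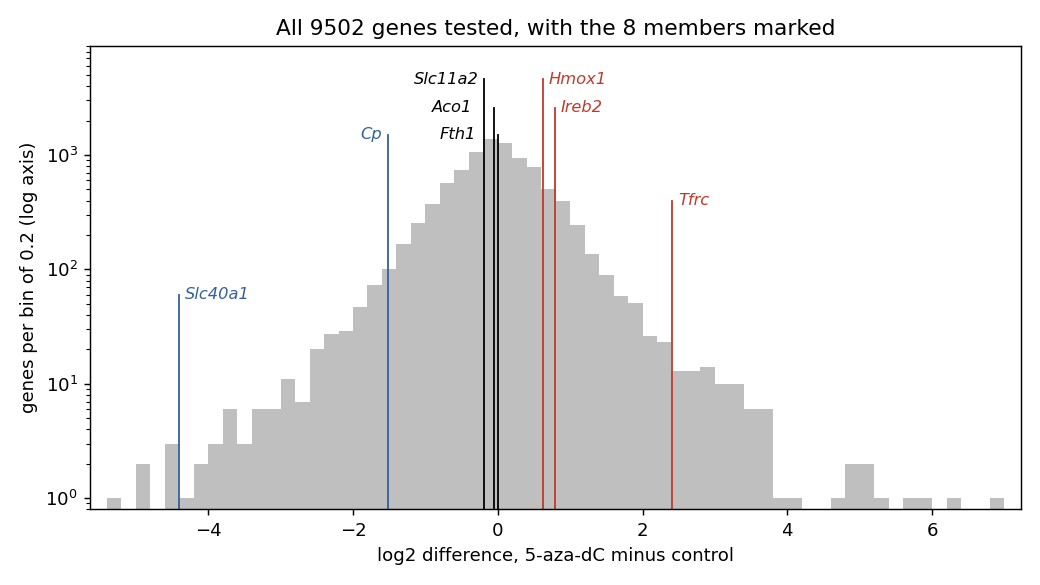
Histogram of the log2 difference, 5-aza-dC minus control (horizontal axis), of all 9502 genes tested, in bins of 0.2 with the number of genes on a log axis, and lines marking the 8 members above background (red, called higher; blue, called lower; black, not called). Slc40a1 at -4.40 and Tfrc at 2.41 lie in opposite tails, while Fth1, Aco1 and Slc11a2 lie near the centre.

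The genes with profiles most like that of Slc40a1 were found by the root mean square distance between profiles over the 8 arrays. Each gene was first centred on its mean over the control arrays. The 5 nearest were Srpx2 at 0.13, Col3a1 at 0.18, Cdo1 at 0.22, Ogn at 0.29 and Adamts5 at 0.32 log2 units. Col3a1 encodes a fibrillar collagen chain, Ogn a small matrix proteoglycan, Adamts5 a protease that cuts aggrecan, and Cdo1 an enzyme of cysteine breakdown. Their differences were -4.43 for Srpx2, -4.50 for Col3a1, -4.35 for Cdo1, -4.80 for Ogn and -4.01 for Adamts5. Each was above background on all 4 treated arrays.

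The wider iron pathway was read from 6 lists of 87 genes that hold no member, of which 76 had a probe and 61 were tested. Of these, 17 were higher, 14 were lower and 30 did not pass, so 50.8% were called, a share near the 52% of all genes and no result about the lists themselves. Their median log2 difference was 0.01. Some of the 31 calls were lost when 1 of the 4 replicates was left out. Such a fit leaves 1 replicate in a group. The number of calls over all genes changed as well, as given at the end. Without a control replicate, the spread comes from the 5-aza-dC replicates alone. Arrays of different replicates correlated at r = 0.987 to 0.988 within 5-aza-dC and at 0.996 within control.

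Of 14 other transport and reductase genes tested, 5 were higher and 5 lower. Slc39a14, a zinc and iron importer also called ZIP14, read 5.97, 5.98, 5.88 and 5.72 with 5-aza-dC and 4.78, 4.77, 4.88 and 4.69 in control. It was higher by a fitted 1.10 (adjusted p = 0.000546, limma), and its 2 probes gave 0.77 and 1.10. It was above background on all 4 treated arrays but only 1 control array, so its size rests on a control level near the detection limit. Its relative Slc39a8 was above background on no control array and on all treated arrays, and was at least 1.54-fold higher (adjusted p = 0.00515). Such a bound sets the treated mean against the lowest signal above background on each control array. Ndfip1, an adaptor that directs DMT1 to ubiquitination, was higher by 0.74 (adjusted p = 0.0126). Its difference was 0.66 without control replicate 1 and 0.82 without control replicate 2, and it was called in neither fit. Scara5, a ferritin receptor, read 7.51, 7.57, 7.47 and 7.36 with 5-aza-dC and 8.83, 8.78, 8.99 and 8.98 in control. It fell by 1.42 on the log2 scale, 2.67-fold (adjusted p = 0.00035). Slc22a17, a lipocalin-2 receptor, differed by -1.11 (adjusted p = 0.00139) with its brighter probe and by -0.18 with its second. The brighter probe was above background on 3 treated arrays and all control arrays, so its size rests on a treated level near the detection limit. Exoc6, an exocyst subunit needed for transferrin recycling in red cell precursors, differed by -0.71 (adjusted p = 0.00218, limma). It read 5.08, 5.38, 5.35 and 4.85 with 5-aza-dC, above background on all 4 arrays. The lowest level above background on these arrays was 4.73 to 4.81, so its size rests on a treated level near the detection limit.

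Of 11 genes of iron sensing and systemic regulation tested, 2 were higher and 4 lower. Hamp encodes hepcidin, the liver hormone that makes ferroportin protein leave the cell surface, and Hamp2 is a mouse copy of that gene. Whether the product of Hamp2 acts on ferroportin was not measured. The Hamp2 probe read 7.76, 7.86, 8.02 and 7.99 with 5-aza-dC and was above background on no control array. It was at least 8.20-fold higher (adjusted p = 2.436e-05). Hamp itself averaged 4.75 with 5-aza-dC and 4.31 in control, was above background on 2 treated arrays only, and did not pass (adjusted p = 0.107). The 2 genes are related copies, so which of them the probes read is uncertain. The 5 hepatocyte markers were above background on no array, treated ones included. Neo1, a receptor that binds hemojuvelin, was higher by 0.69 (adjusted p = 0.0127, limma). It was higher by 0.60 without control replicate 1 and 0.77 without control replicate 2, and called in neither fit. Hfe, the haemochromatosis gene, fell by 1.05 on the log2 scale (adjusted p = 0.00064). Hif1a, a hypoxia-inducible factor, differed by -0.69 (adjusted p = 0.0255, limma) and by -0.55, not called, without control replicate 2. Keap1, which holds the antioxidant regulator NRF2 in check, differed by -0.47 (adjusted p = 0.0488), the largest among its 4 probes, which ran to -0.19. Its difference was -0.41 without control replicate 1, -0.52 without control replicate 2 and -0.27 without 5-aza-dC replicate 1. It was called in none of these fits.

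All 3 genes tested of ferritin loading and turnover are given. Ncoa4, the receptor that takes ferritin to lysosomes, read 8.95, 8.95, 8.48 and 8.52 with 5-aza-dC and 7.87, 7.93, 8.01 and 8.07 in control. It rose by 0.75 (adjusted p = 0.0128, limma), and by 0.68, not called, without control replicate 1. The iron chaperones Pcbp1 and Pcbp2, which deliver iron to ferritin, differed by 0.07 (adjusted p = 0.754) and -0.02 (adjusted p = 0.941). By limma, 0 genes of this list were lower, also 0 at an unadjusted p under 0.05.

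Of 11 haem synthesis genes tested, 5 were higher and 2 lower. Abcb6, a porphyrin transporter, rose by 0.92 (adjusted p = 0.00228). Alad, the enzyme of the second step, was higher by 0.52 (adjusted p = 0.0123), and Fech, which inserts the iron, by 0.44 (adjusted p = 0.0429). The Alad difference was 0.58 without control replicate 1 and 0.47 without control replicate 2, and it was called in neither fit. The Fech difference was 0.34 and 0.54 without these replicates in turn and 0.30 without 5-aza-dC replicate 1. It was called in none of these fits. The 3 Fech probes also disagreed in sign, from -0.28 to 0.44. Ppox, the enzyme of the last step but one, read 7.07, 7.12, 7.09 and 7.01 with 5-aza-dC and 8.25, 8.35, 8.20 and 8.16 in control. It fell by 1.17 on the log2 scale, or 2.24-fold (adjusted p = 0.000471), and its 2 probes gave -1.17 and -0.83. Urod, an earlier enzyme, differed by -0.46 (adjusted p = 0.0226, limma). It differed by -0.43 without control replicate 1 and -0.50 without control replicate 2, and was called in neither fit.

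Of 8 genes of haem transport and breakdown tested, 1 was higher and 2 lower. Hpx, the haem-binding plasma protein haemopexin, rose by 0.71 (adjusted p = 0.00269) and was above background on all treated arrays and on 1 control array. Lrp1, the receptor for the haem-haemopexin complex among many other ligands, averaged 6.79 with 5-aza-dC and 8.05 in control. It fell by 1.26 on the log2 scale, 2.39-fold (adjusted p = 0.000297). Flvcr2, a choline and haem transporter, fell by 0.89 (adjusted p = 0.000697). It was above background on 3 treated arrays and all control arrays, so its size rests on a treated level near the detection limit. Hmox2, the constitutive haem oxygenase, differed by -0.06 and did not pass (adjusted p = 0.654).

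Of 14 iron-sulphur cluster genes tested, 3 were higher, 1 was lower and 10 did not pass. Ciapin1, an electron carrier of the cytosolic assembly route, read 9.98, 9.98, 10.09 and 10.12 with 5-aza-dC and 8.79, 8.76, 8.87 and 8.61 in control. It rose by 1.28, or 2.43-fold (adjusted p = 0.000412). Nubp2, part of the cytosolic scaffold, rose by 0.98 (adjusted p = 0.000688), with its 3 probes between 0.91 and 0.98. Nfs1, the cysteine desulfurase that supplies the sulphur, was higher by 0.40 (adjusted p = 0.0467), with its 3 probes between 0.31 and 0.40. It lost the call without control replicate 1 (difference 0.41), control replicate 2 (difference 0.39) or 5-aza-dC replicate 1 (difference 0.25). Hscb, a co-chaperone of cluster transfer, differed by -0.62 (adjusted p = 0.0113), and its 2 probes gave -0.62 and -0.44. The brighter probe was above background on 3 treated arrays and all control arrays, so its size rests on a treated level near the detection limit.

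**Figure D4:**
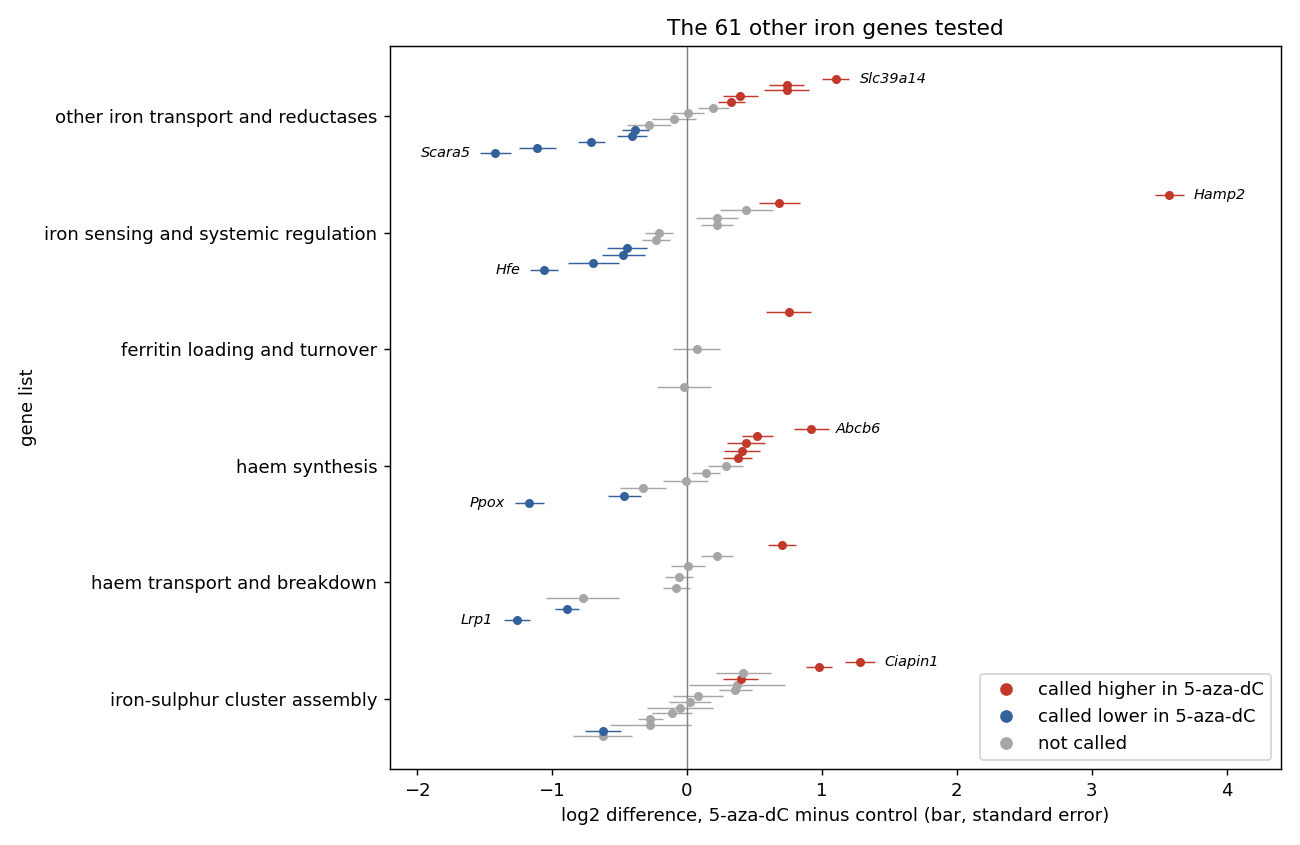
Log2 difference, 5-aza-dC minus control (horizontal axis, bars the standard error), of the 61 other iron genes tested, grouped by list on the vertical axis, with red for called higher, blue for called lower and grey for not called. Hamp2 lies farthest to the right at a fitted 3.58, where the control level is below background, and each list but ferritin loading holds genes called in both directions.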

How the data were processed

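Total RNA of 2 biological replicates per group was measured on 8 Illumina bead arrays, with 2 technical arrays per replicate. The deposited signal intensity is the mean bead signal per probe, with no background subtraction, beside a deposited detection p-value, the fraction of negative control beads brighter than the probe. The authors made their normalised intensity values with lumi (version not given in the sources used here), by background subtraction, a variance-stabilising transformation and robust spline normalisation. These were used as an alternative only.

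Signals were corrected and quantile-normalised with neqc of limma 3.58.1 in R 4.3.3 (offset 16, with control intensities estimated through the detection p-values) and taken as log2. Probes with a detection p-value under 0.05 on at least 2 of 8 arrays were kept, and a gene was read from its brightest kept probe. Technical arrays were averaged, so that n = 2 per group, and limma with an intensity trend was fitted across all 9502 genes, with Benjamini-Hochberg adjustment and a threshold of 0.05. Standard errors and intervals of single member probes came from the same fit over 14308 probes. The number of arrays limits the precision.

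Probes were named through the platform annotation, updated by Entrez identifier, which gave 1 symbol for 23978 of 25697 probes, and 1719 were unnamed. The members and gene lists were chosen with earlier results of these data known. Named outside the members were up to 3 genes called in each direction per list with the largest change, every gene of a list with under 5 tested, and the 5 profiles nearest to Slc40a1. Genes named beyond this rule (Hamp and Hmox2) were chosen after their values were seen. Settings tried were another offset, median scaling, no filter or a stricter one, the deposited values, the mean over a gene's probes, technical arrays entered singly, the replicate number as a block, and each replicate left out.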

Additional observations from a re-analysis of the deposited data

How the results depend on the processing

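Over the 8 members measured, 13 alternatives gave 104 values, of which 95 moved by less than the replicate SD, 9 moved by more and 0 of a called member changed sign. Slc40a1 ranged from -4.59 to -3.73, Tfrc from 2.22 to 2.57, Cp from -1.61 to -1.17, Ireb2 from 0.59 to 1.00 and Hmox1 from 0.51 to 0.70, and the call of Hmox1 was lost without control replicate 2. Leaving out each replicate in turn gave 2 to 3 members higher and 2 lower, 1568 to 2943 genes higher and 1676 to 2963 lower over all genes, and 7 to 19 other iron genes higher and 10 to 18 lower. Median scaling gave 11 other iron genes higher and 15 lower. It also shifted the whole set of 9502 genes, whose median log2 difference moved from -0.02 to -0.09. Among all genes called, the share that was higher fell from 50.5% to 43.4%. The part of this shift in the iron gene count was not tested. Same-numbered replicates did not deviate together (r = -0.60 over 14308 probes). With 2 replicates per group, this cannot decide whether the numbers pair the samples. With the replicate block, 3 members were higher and 2 lower, 12 other iron genes higher and 12 lower, and 2177 genes higher and 2208 lower over all genes. With the crossed pairing as a block, chosen after seeing the data, the counts were 3 and 2 for members, 22 and 17 for other iron genes, and 3043 and 3128 over all genes. Signals near background, as for Slc40a1 with 5-aza-dC, limit how closely a fold can be stated.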
